A study of Mus musculus with 17 samples.

Results

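A set of 9 genes of leukocyte adhesion and homing were followed in sorted mouse bone marrow cells: the integrin chains Itgb7, Itga4, Itgb2, Itgal, Itgam and Itgax, the selectin ligand Selplg, and the chemokine receptors Ccr7 and Cxcr4. All probe sets whose only gene symbol in the platform annotation is one of these 9 genes were taken, which gave 14 of the 45101 probe sets of the array. Itga4 has 5 probe sets, Itgal has 2, and the other 7 genes have 1 each. Total RNA was measured on 17 expression arrays in 2 batches. Batch 1 held GPI-negative cells (3 arrays) and GPI-positive cells (3 arrays), both sorted from the marrow of Pig-a knock-out mice. Batch 2 held GPI-negative cells of C57BL/6 recipients of marrow from Pig-a knock-out donors that had been enriched for GPI-deficient cells (4 arrays), GPI-positive cells of C57BL/6 recipients that were given wild-type marrow (3 arrays), and the GPI-positive cells from wild-type C57BL/6 animals (4 arrays). For the knock-out graft the labels give 30 minutes with 10 nM aerolysin, a toxin that lyses cells carrying GPI-anchored proteins, and 9 Gy of total body irradiation of the recipients. They give neither for the other groups, so between the recipients the loss of GPI cannot be told apart from the way the graft was treated. The labels leave out how the deletion was driven, the age and sex of the mice, and the share of host cells left in the recipients. The sort used antibodies to CD24, CD48 and Gr-1, GPI-anchored antigens whose amounts differ between marrow cell types.

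Integrins are pairs of an alpha and a beta chain that bind counter-receptors on other cells or in the matrix once signals from inside the cell switch them on. The beta2 chain Itgb2 pairs with alpha L (Itgal), alpha M (Itgam), alpha X (Itgax) and alpha D in leukocytes, and the beta7 chain Itgb7 pairs with alpha 4 (Itga4) or alpha E (Itgae) in lymphocytes and other cells that enter mucosal tissue. Selplg slows leukocytes by rolling on selectins, Ccr7 guides dendritic cells and T cells to lymph nodes, and Cxcr4 holds blood cells in the marrow. None of the 9 proteins is attached by a GPI anchor.

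Before the results, the arrays themselves were checked. Piga, the deleted gene, had, on 1 of its 2 probe sets, log2 signals of 1.92 to 2.19 in knock-out GPI-negative cells, against 3.81 to 4.38 in knock-out GPI-positive cells. It had 0.13 to 0.77 in recipients of knock-out marrow, against 3.87 to 4.10 in recipients of wild-type marrow and 3.92 to 4.15 in wild-type mice. Its other probe set had 1.07 to 1.86 in knock-out GPI-negative cells, against 2.38 to 2.86 in knock-out GPI-positive cells. There the gap was narrow in batch 2, with 0.53 to 1.49 in recipients of knock-out marrow, against 1.54 to 1.95 in recipients of wild-type marrow and 1.77 to 2.12 in wild-type mice. The pan-leukocyte genes Ptprc, Laptm5, Coro1a, Cd53 and Spi1 lay at or above the 93.9th percentile on every array. The knock-out GPI-negative arrays stood apart in technical measures: 18 hybridisation control probe sets averaged 8.28 ± 0.34 there and 6.31 ± 0.25 on the knock-out GPI-positive arrays (log2, SD, n = 3 each), with 6.37 to 6.77 as group means in batch 2. The signal of the 3′ Gapdh control probe set minus that of the 5′ one, a measure used for RNA quality, was -0.16 ± 0.13 in knock-out GPI-negative cells and -1.02 ± 0.02 in knock-out GPI-positive cells (log2, SD, n = 3 each), with group means of -0.93 to -0.63 in batch 2. The 3 knock-out GPI-positive arrays varied least among themselves, with a median SD over probe sets of 0.109, against 0.209 in knock-out GPI-negative cells and 0.157 to 0.185 in batch 2. Results that change when these 3 arrays are counted as 1 sample are named below. All levels here are log2 signals of a probe set, the batches were normalized separately, and no level is compared between batches or between probe sets. The arrays of a group are called biological replicates in the labels, which do not name the animals, and p-values cover the spread of these arrays alone.

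**Figure D1:**
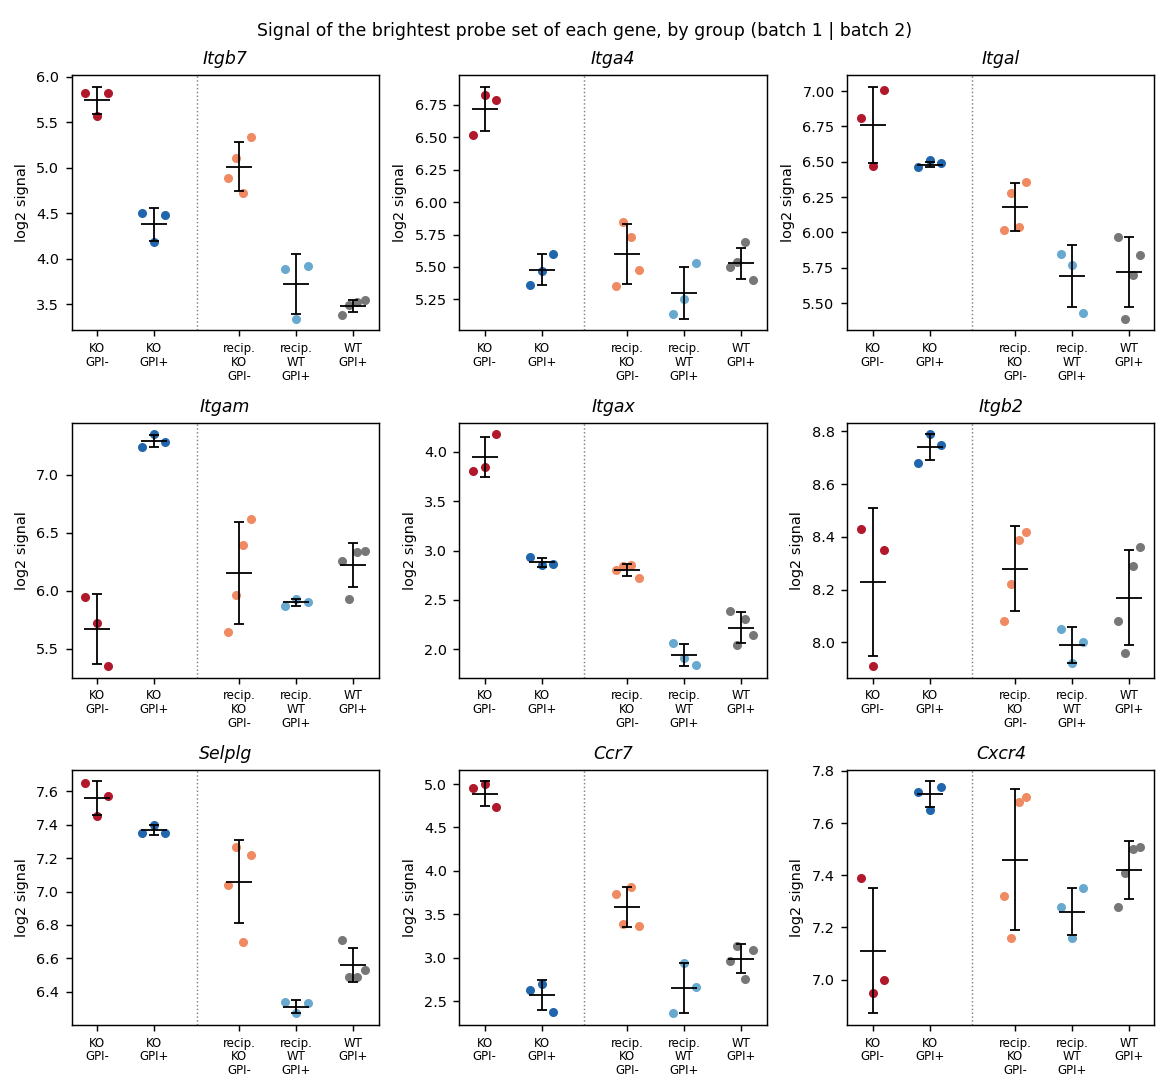
Log2 signal (vertical axes, which differ) of the brightest probe set of each gene on each array, with KO GPI- and KO GPI+ cells of batch 1 left of the dotted line and GPI- cells of recipients of KO marrow, GPI+ cells of recipients of WT marrow and WT GPI+ cells of batch 2 right of it. Points are arrays, and bars are the mean ± SD of 3 or 4 arrays. Itgb7, Itgax and Ccr7 of GPI-negative cells lie above every other array of their batch, and Itgam shows the KO GPI-negative arrays at 5.35 to 5.95, below the KO GPI-positive arrays at 7.24 to 7.35.

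The first comparison set GPI-negative against GPI-positive cells, both sorted from marrow of Pig-a knock-out mice. The labels do not say whether both came from the same animals. Ccr7, Itgb7, Itga4 and Itgax were higher in GPI-negative cells, by 2.09-fold to 5.01-fold on their brightest probe sets. Itgam, Cxcr4 and Itgb2 were lower, by 1.43-fold to 3.07-fold, and Itgal and Selplg did not pass the test. In probe sets, 8 of the 14 passed an adjusted p of 0.05 in limma's moderated test over all 32393 probe sets kept, 5 of them higher and 3 lower. Over all probe sets 25.4% passed in this comparison, 12% higher and 13.4% lower. The median log2 difference was 0.22 over the 14 probe sets and -0.02 over all. In these sorted but mixed cells, fewer cells of a type and less RNA per cell cannot be told apart.

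Itgb7, the chain that gives mucosal homing integrins their beta subunit, had log2 signals of 5.82, 5.57 and 5.82 in knock-out GPI-negative cells, against 4.5, 4.18 and 4.48 in knock-out GPI-positive cells. The groups did not overlap, and the log2 difference was 1.35 ± 0.16 (SE), a 2.55-fold rise (adjusted p = 1.9e-06). For Itga4, its alpha partner, which also pairs with Itgb1 to bind Vcam1, the brightest probe set 1436037_at read 6.52, 6.83 and 6.79 in GPI-negative cells, against 5.36, 5.47 and 5.60 in GPI-positive cells. Here too every GPI-negative array lay above every GPI-positive array, by a log2 difference of 1.24 ± 0.14 (2.36-fold, adjusted p = 9.9e-07).

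The 5 Itga4 probe sets did not move alike. Probe set 1456498_at also rose, with 3.70, 3.82 and 3.69 in GPI-negative cells, against 3.12, 3.25 and 3.41 in GPI-positive cells. Its log2 difference was 0.47 ± 0.12 (adjusted p = 0.0073), and with the GPI-positive arrays averaged to 1 sample the same difference had an adjusted p of 0.13. The 3 dimmer probe sets had log2 differences of 0.25, -0.09 and -0.17 (adjusted p = 0.28, 0.78 and 0.51). The dimmest, 1427615_at, lay at the 23.3rd percentile in GPI-negative cells and the 30.6th in GPI-positive cells on average, and the parts of the transcript that the probe sets cover are not given in the tables used here.

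**Figure D2:**
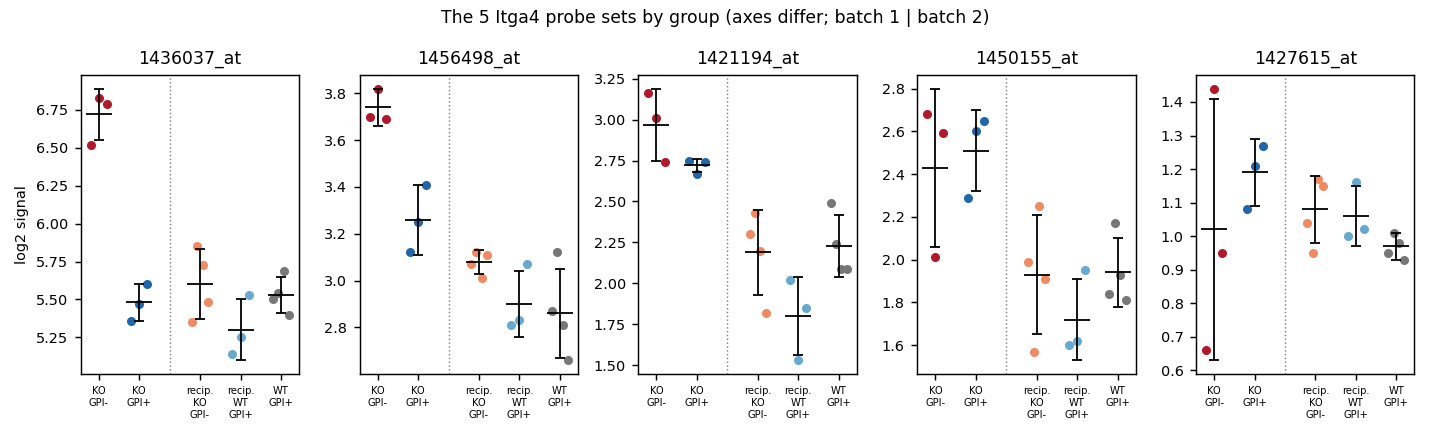
Log2 signal of the 5 Itga4 probe sets (1 panel each, axes differ) on each array in the 5 groups, with points for arrays and bars for the mean ± SD of 3 or 4 arrays. The KO GPI-negative arrays lie above the KO GPI-positive arrays on the brightest 2 probe sets and overlap with them on the other 3.

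Itgb2, the shared chain of the leukocyte-specific integrins, had log2 signals of 8.43, 7.91 and 8.35 in knock-out GPI-negative cells, against 8.68, 8.79 and 8.75 in knock-out GPI-positive cells. GPI-negative replicate 2 was the lowest, the groups did not overlap, and the log2 difference was -0.51 ± 0.13 (adjusted p = 0.0071). Without GPI-negative replicate 2 the difference was -0.35 (adjusted p = 0.051), and with the GPI-positive arrays averaged to 1 sample the adjusted p was 0.15. The 3 alpha chains followed here went different ways. Itgam, which makes the complement receptor of neutrophils and monocytes, had 5.95, 5.72 and 5.35 in GPI-negative cells, against 7.24, 7.35 and 7.28 in GPI-positive cells. That is a gap of more than 1 log2 unit between the closest arrays and a log2 difference of -1.62 ± 0.19 (3.07-fold lower, adjusted p = 1.4e-06).

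Itgax, the chain used as a marker of dendritic cells, had 3.81, 3.85 and 4.18 in knock-out GPI-negative cells, against 2.94, 2.85 and 2.86 in knock-out GPI-positive cells. It was thus higher on every GPI-negative array, by a log2 difference of 1.07 ± 0.12 (2.09-fold, adjusted p = 1.4e-06). Itgal, the alpha chain of the integrin with which lymphocytes bind Icam proteins, had 6.81, 6.47 and 7.01 on its brighter probe set 1435560_at in GPI-negative cells, against 6.46, 6.51 and 6.49 in GPI-positive cells. These groups overlapped, with a log2 difference of 0.28 (95% interval -0.05 to 0.60, adjusted p = 0.21), and the second probe set 1425367_at differed by -0.06 (adjusted p = 0.84).

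Itgam and Itgax are close relatives among the alpha chains and moved in opposite directions in this comparison, so the 250 bases before their start sites are shown, from RefSeq on GRCm38.p6, both on the plus strand. The Itgam window is chr7:128062390-128062639 and the Itgax window is chr7:128129300-128129549. Capitals mark the purine-rich core GAGGAA or its reverse complement TTCCTC, a core that ETS factors of myeloid cells such as Spi1 can bind.
Itgam: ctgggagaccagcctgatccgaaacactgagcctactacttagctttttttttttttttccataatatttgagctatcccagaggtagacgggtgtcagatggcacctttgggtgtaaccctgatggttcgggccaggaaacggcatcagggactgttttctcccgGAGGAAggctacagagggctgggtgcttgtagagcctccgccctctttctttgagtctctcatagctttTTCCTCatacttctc
Itgax: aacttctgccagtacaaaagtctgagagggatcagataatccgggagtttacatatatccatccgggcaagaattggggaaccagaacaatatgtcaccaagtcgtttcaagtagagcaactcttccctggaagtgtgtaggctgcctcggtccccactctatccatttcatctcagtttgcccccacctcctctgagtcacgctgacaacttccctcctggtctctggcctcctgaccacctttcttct
The core begins 84 and 15 bases before the Itgam start and has no match in the Itgax window. Only this exact string and its reverse complement were searched, so other ETS-type sites were not looked for. On either strand, 23.3% of 32851 mouse windows of this length hold it. Windows were at hand for 5 of the 9 genes, and the Cxcr4, Itga4 and Itgb7 windows have no match either. Of the other motifs searched on both strands, TGTGGT (the RUNX core, in 14% of windows) is in the Itga4 window, and GGGCGG (the GC box, in 32.7%) is in the Cxcr4, Itga4 and Itgam windows. A match describes letters in a window and not a bound site.

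Selplg, the P-selectin ligand, had 7.65, 7.45 and 7.57 in knock-out GPI-negative cells, against 7.35, 7.40 and 7.35 in knock-out GPI-positive cells. Its arrays did not overlap, but the log2 difference of 0.19 ± 0.12 did not pass (95% interval -0.07 to 0.45, adjusted p = 0.29). Ccr7, the receptor for Ccl19 and Ccl21, had 4.95, 5.0 and 4.74 in GPI-negative cells, against 2.63, 2.70 and 2.38 in GPI-positive cells. This was the largest difference of the 14 probe sets, at 2.32 ± 0.16 on the log2 scale (5.01-fold, adjusted p = 6.3e-10). Cxcr4, the receptor for Cxcl12, had 7.39, 6.95 and 7.0 in GPI-negative cells, against 7.72, 7.65 and 7.74 in GPI-positive cells. All GPI-negative arrays lay below the GPI-positive arrays, by a log2 difference of -0.59 ± 0.14 (1.51-fold lower, adjusted p = 0.0033), which had an adjusted p of 0.10 when the GPI-positive arrays were averaged to 1 sample.

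In 9 of the 14 probe sets the groups did not overlap, against 39.5% of all probe sets, and the exact two-sided permutation test of 3 against 3 arrays cannot go below p = 0.10. Markers of other cell types moved with these results. All 13 T and NK cell markers tested were higher in knock-out GPI-negative cells, with a summed linear signal of 651 to 688, against 55.2 to 59.2 in knock-out GPI-positive cells. Of 10 dendritic cell markers, Ccr7 among them, 8 were higher, with sums of 302 to 336 against 125 to 132. Of 11 neutrophil markers 9 were lower, with sums of 18320 to 19482 in GPI-negative cells against 22601 to 23317 in GPI-positive cells. Of 12 monocyte and macrophage markers 7 were lower and 1 was higher, with overlapping sums of 315 to 431 in GPI-negative and 415 to 426 in GPI-positive cells. B cell markers were higher for 5 of 9 genes (sums of 554 to 731 against 301 to 319), and eosinophil and basophil markers were lower for 5 of 8 (84.8 to 103 against 250 to 262). Of the 5 pan-leukocyte genes 1 was higher and 2 were lower. Their sums were 1756 to 2118 in GPI-negative cells against 2685 to 2954 in GPI-positive cells. Of 8 stromal and endothelial markers 3 were higher (33.6 to 41.6 against 23.8 to 27.4), and limma called 0 of 7 erythroid markers, with 1 at an unadjusted p under 0.05. No marker of these lists had a mean of 0 in either group. Below the array median in GPI-negative cells lay C1qa, C1qb, C1qc, Zbtb46, Xcr1, Prg3, Ccr3, Hba-a1 and 5 stromal markers. Below it in GPI-positive cells lay Cd3e, Cd247, Cd5, Cd8b1, Cd4, Ncr1, Xcr1, Ccr3, Hba-a1 and 5 stromal markers. The part of these markers, of the hybridisation controls and of the Gapdh measure in the results, the unlike Itga4 probe sets included, was not tested.

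**Figure D3:**
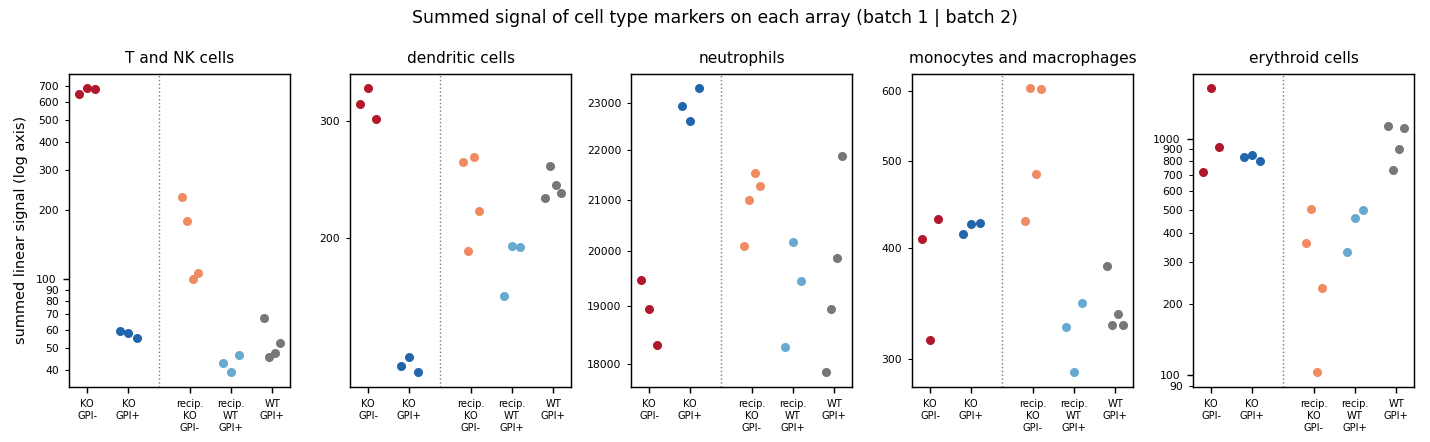
Summed linear signal of the tested markers of 5 cell types (log axes, which differ) on each array of the 5 groups, 1 point per array. T and NK cell sums are 651 to 688 on the KO GPI-negative arrays and 55.2 to 59.2 on the KO GPI-positive arrays, and neutrophil sums are lower on the KO GPI-negative arrays.

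The second comparison set the recipients of knock-out marrow (GPI-negative) against the recipients of wild-type marrow (GPI-positive), and it shares no array with the first. Itgb7, Ccr7, Itgax and Selplg were higher in recipients of knock-out marrow, by 1.68-fold to 2.46-fold. None of the 14 probe sets was lower with an adjusted p under 0.05, and the fitted difference was above 0 for each of the 14. The 4 calls stand beside 4.1% of all probe sets called, 2.34% higher and 1.76% lower. The median log2 difference was 0.34 over the 14 probe sets and 0 over all.

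Itgb7 had log2 signals of 4.89, 5.11, 4.72 and 5.34 in recipients of knock-out marrow, against 3.89, 3.34 and 3.92 in recipients of wild-type marrow. The lowest array of the first group was above the highest of the second, and the log2 difference was 1.30 ± 0.15 (2.46-fold, adjusted p = 1.5e-05). Its partner Itga4 had 5.35, 5.85, 5.73 and 5.48 on probe set 1436037_at in recipients of knock-out marrow, against 5.14, 5.25 and 5.53 in recipients of wild-type marrow. The Itga4 groups overlapped, with a log2 difference of 0.30 (95% interval 0.02 to 0.57, adjusted p = 0.27), and the other 4 probe sets differed by 0.02 to 0.39 without passing.

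Among the beta2 integrins only Itgax passed, with 2.80, 2.84, 2.85 and 2.72 in recipients of knock-out marrow, against 2.06, 1.91 and 1.84 in recipients of wild-type marrow. The Itgax groups stood apart by a log2 difference of 0.86 ± 0.12 (1.82-fold, adjusted p = 7.7e-05). Itgam had 5.64, 5.96, 6.39 and 6.62 in recipients of knock-out marrow, against 5.87, 5.93 and 5.90 in recipients of wild-type marrow. Its spread was far wider in the recipients of knock-out marrow, whose arrays lay on both sides of the other group, and the log2 difference was 0.25 (95% interval -0.12 to 0.61, adjusted p = 0.57). Itgb2 had 8.08, 8.22, 8.39 and 8.42 in recipients of knock-out marrow, against 8.05, 7.92 and 8.0 in recipients of wild-type marrow. The Itgb2 arrays did not overlap, yet the log2 difference of 0.29 did not pass (95% interval 0.03 to 0.55, adjusted p = 0.27).

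Itgal had 6.02, 6.28, 6.04 and 6.36 on probe set 1435560_at in recipients of knock-out marrow, against 5.85, 5.77 and 5.43 in recipients of wild-type marrow. No array overlapped, and the log2 difference of 0.49 had an adjusted p of 0.063. The second Itgal probe set, 1425367_at, differed by 0.45 (adjusted p = 0.093). Both crossed the threshold without replicate 1 of the recipients of knock-out marrow, at 0.54 (adjusted p = 0.049) and 0.61 (adjusted p = 0.0058). Itgal also crossed it with all arrays when each gene had 1 value, at 0.49 (adjusted p = 0.041) for the brightest kept probe set per gene and 0.47 (adjusted p = 0.028) for the mean of the kept probe sets.

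Selplg had 7.04, 7.27, 6.70 and 7.22 in recipients of knock-out marrow, against 6.34, 6.27 and 6.33 in recipients of wild-type marrow. It was higher on every array of the first group, by a log2 difference of 0.74 ± 0.12 (1.68-fold, adjusted p = 0.00045). Ccr7 had 3.73, 3.39, 3.82 and 3.37 in recipients of knock-out marrow, against 2.36, 2.94 and 2.66 in recipients of wild-type marrow. Again no array overlapped, and the log2 difference was 0.92 ± 0.15 (1.90-fold, adjusted p = 0.00053). Cxcr4 had 7.32, 7.16, 7.68 and 7.70 in recipients of knock-out marrow, against 7.28, 7.16 and 7.35 in recipients of wild-type marrow. These groups overlapped, with a log2 difference of 0.20 (95% interval -0.07 to 0.47, adjusted p = 0.52).

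Groups did not overlap in 6 of the 14 probe sets, against 12.7% of all probe sets, and a two-sided exact permutation test gave p = 0.02857, the smallest that 4 against 3 arrays can give, for Itgb7, Itgax, Ccr7 and the brighter Itgal probe set. The same permutation test gave p = 0.05714 for the other non-overlapping probe sets, those of Itgb2 and Selplg. T and NK cell markers were higher in recipients of knock-out marrow for 12 of 13 genes, with sums of 100 to 229, against 38.9 to 46.6 in recipients of wild-type marrow. Of 10 dendritic cell markers, Ccr7 included, 6 were higher, with overlapping sums of 191 to 264 and 163 to 195. Of 12 monocyte and macrophage markers 6 were higher and 4 lower, with sums of 429 to 604 in recipients of knock-out marrow against 290 to 347 in recipients of wild-type marrow. Of 11 neutrophil markers 3 were lower, with overlapping sums of 20112 to 21531 and 18277 to 20182. A linear sum weighs the brightest markers most, here S100a8, which averaged 12.94 (log2) in both groups. Of 7 erythroid markers 4 were lower (Klf1, Epor, Ermap and Rhag, by 1.61-fold to 2.87-fold), with overlapping sums of 103 to 502 and 333 to 500. Among 8 eosinophil and basophil markers the basophil genes Mcpt8, Cpa3 and Ms4a2 were higher, by 2.67-fold, 2.04-fold and 1.87-fold. The eosinophil genes Epx and Prg3 were lower, by 2.42-fold and 2.27-fold, and the sums of the list overlapped, at 252 to 553 and 239 to 322. Of 9 B cell markers limma called 0, with 1 at an unadjusted p under 0.05. No marker of these lists had a mean of 0, and their part in the result was not tested. Itgb7, Itgax and Ccr7 passed in both this and the first comparison, 3 of the 8 calls there and of the 4 calls here. How many of all probe sets passed in both was not counted, so this overlap cannot be set against the whole array.

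**Figure D4:**
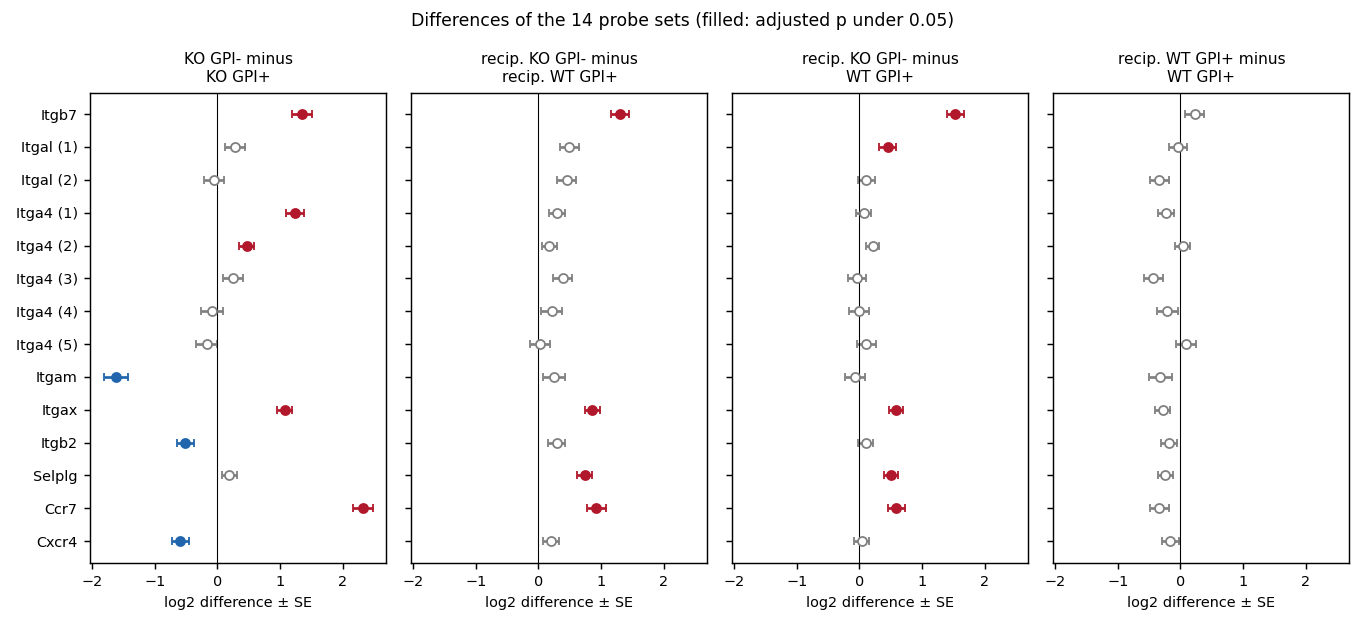
Log2 difference ± SE (horizontal axes) of the 14 probe sets in the 4 comparisons, with numbers in brackets ranking the probe sets of a gene by brightness. Filled points have an adjusted p under 0.05, red for higher and blue for lower: 8 in KO GPI- minus KO GPI+ cells, 4 in recipients of KO minus recipients of WT marrow, 5 in recipients of KO marrow minus WT, and 0 in recipients of WT marrow minus WT.

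The third comparison set the same 4 recipient arrays against untransplanted wild-type mice, so it shares those arrays with the second. The loss of GPI, transplantation, aerolysin treatment and irradiation all lie between these groups and cannot be told apart. Itgb7, Ccr7, Itgax, Selplg and Itgal were higher in recipients of knock-out marrow, by 1.37-fold to 2.89-fold, and no probe set was lower with an adjusted p under 0.05. The 5 calls of 14 stand beside 8.17% of all probe sets called, 4.21% higher and 3.97% lower. Itgb7 lay between 4.72 and 5.34 in recipients of knock-out marrow, against 3.38, 3.49, 3.52 and 3.55 in wild type. The gap between the groups was wide, and the log2 difference of 1.53 ± 0.14 was the largest of the 14 (2.89-fold, adjusted p = 7.4e-07).

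Itgax lay between 2.72 and 2.85 in recipients of knock-out marrow, against 2.39, 2.04, 2.31 and 2.14 in wild type. The groups did not overlap, and the log2 difference was 0.58 ± 0.11 (1.49-fold, adjusted p = 0.0013). Ccr7 lay between 3.37 and 3.82 in recipients of knock-out marrow, against 2.96, 3.14, 2.76 and 3.09 in wild type. All 4 recipients of knock-out marrow were higher than every wild-type array, by 0.59 ± 0.14 (1.5-fold, adjusted p = 0.0084). Selplg lay between 6.70 and 7.27 in recipients of knock-out marrow, against 6.71, 6.49, 6.49 and 6.53 in wild type. There, replicate 1 of wild type slightly exceeded the lowest recipient, replicate 3, and the log2 difference of 0.50 ± 0.11 passed (1.41-fold, adjusted p = 0.0047).

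Itgal on probe set 1435560_at lay between 6.02 and 6.36 in recipients of knock-out marrow, against 5.97, 5.39, 5.70 and 5.84 in wild type. The groups did not overlap, and the log2 difference of 0.45 ± 0.14 passed narrowly (adjusted p = 0.041), and 11 of 18 alternatives lost the call with adjusted p of 0.051 to 0.16. Among these were the fits without array 2 or 4 from recipients of knock-out marrow, or without wild-type array 2, 3 or 4. The difference in those fits was 0.34 to 0.49. The fit with the knock-out GPI-positive arrays averaged to 1 sample, at 0.45, also lost the call. The second Itgal probe set differed by 0.11 (adjusted p = 0.73).

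Itga4, Itgam, Itgb2 and Cxcr4 had log2 differences of 0.07, -0.07, 0.10 and 0.04 on their brightest probe sets, with adjusted p from 0.71 to 0.91. Their 95% intervals were -0.18 to 0.32, -0.40 to 0.27, -0.14 to 0.34 and -0.21 to 0.29 in that order. Groups did not overlap in 4 of the 14 probe sets, against 13.5% of all. T and NK cell markers were higher in recipients of knock-out marrow for 12 of 13 genes, with sums of 100 to 229 against 45.7 to 67.6 in wild type. Dendritic cell sums were 191 to 264 in recipients of knock-out marrow and 229 to 256 in wild type, with 6 of 10 markers higher and 1 lower. Of 12 monocyte and macrophage markers 6 were higher and 5 lower, with sums of 429 to 604 in recipients of knock-out marrow against 327 to 381 in wild type. Of 7 erythroid markers 6 were lower, with sums of 103 to 502 against 736 to 1133. The basophil genes Mcpt8, Cpa3 and Ms4a2 were higher, by 3.96-fold, 3.39-fold and 2.04-fold (adjusted p = 8.6e-05, 7.8e-07 and 0.0081), and no other gene of the 8 eosinophil and basophil markers passed. Of 9 B cell markers Ms4a1 and Ebf1 were lower, each by 1.55-fold (adjusted p = 0.021 and 0.012), and of 11 neutrophil markers Elane was lower, by 1.43-fold (adjusted p = 0.015). The part of these markers in the results was not tested.

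The fourth comparison set the recipients of wild-type marrow against untransplanted mice, both GPI-positive, and shares its arrays with the other batch 2 comparisons. No member passed: limma called 0 of the 14 probe sets, with 5 at an unadjusted p under 0.05 and a smallest adjusted p of 0.22. Over all probe sets 0.617% were called. The median log2 difference over the 14 was -0.22, and 3 of the 14 were above 0. Itgax, Ccr7 and Selplg, whose signals are given above, differed by -0.28, -0.34 and -0.24. In limma's test their unadjusted p was 0.022, 0.033 and 0.048, and their adjusted p was 0.30, 0.35 and 0.40. The recipients of wild-type marrow, which read lower for these 3 genes, are also the reference of the second comparison. Itgb7 differed by 0.23 (95% interval -0.08 to 0.54). Itgam, with 5.87, 5.93 and 5.90 in recipients of wild-type marrow, against 6.26, 5.93, 6.33 and 6.34 in wild type, differed by -0.32 (adjusted p = 0.49). Groups did not overlap in 4 of the 14 probe sets, against 12.4% of all. Erythroid marker sums were 333 to 500 in recipients of wild-type marrow and 736 to 1133 in wild type. T and NK cell sums were 38.9 to 46.6 against 45.7 to 67.6. Limma called 0 markers of either list, with 3 in each at an unadjusted p under 0.05. Dendritic cell sums were 163 to 195 against 229 to 256, with 1 of 10 markers lower. Of 12 monocyte and macrophage markers 1 was lower, and of 11 neutrophil markers 1 was higher. The part of these markers was not tested.

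Set in order within batch 2, Itgb7, Itgax, Selplg and Ccr7 were highest in recipients of knock-out marrow, by more than the larger SD of neighbouring groups. Below them, Itgb7 averaged 3.72 ± 0.33 in recipients of wild-type marrow and 3.48 ± 0.07 in wild type, which differed by less than the larger SD. For Itgax, Selplg and Ccr7 wild type came second, at 2.22 ± 0.16, 6.56 ± 0.10 and 2.99 ± 0.17. Itgam averaged 6.15 ± 0.44 in recipients of knock-out marrow, 5.90 ± 0.03 after wild-type marrow and 6.22 ± 0.19 in wild type, and neighbours in the order of levels lay within the larger SD. Cxcr4 averaged 7.46 ± 0.27 in recipients of knock-out marrow, 7.26 ± 0.09 after wild-type marrow and 7.42 ± 0.11 in wild type, and its upper pair differed by less than the larger SD. The same held for the upper pair of Itgb2 (8.28 ± 0.16 and 8.17 ± 0.18) and of Itga4 (5.60 ± 0.23 and 5.53 ± 0.12), each with recipients of knock-out marrow above wild type.

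Whether a gene differed by unlike amounts in the first and the second comparison was tested as an interaction, the knock-out difference minus the recipient difference. It was called for 6 of the 14 probe sets, 2 above 0 and 4 below 0, against 15% of all probe sets, 6.74% above 0 and 8.24% below 0. Itgam had the largest, with a log2 difference of -1.62 in knock-out marrow and 0.25 in recipients, and an interaction of -1.87 ± 0.26 (SE, adjusted p = 7.5e-05). Itgb2 had -0.51 in knock-out marrow and 0.29 in recipients, with an interaction of -0.80 ± 0.18 (adjusted p = 0.0051). Cxcr4 had -0.59 and 0.20 in the same order, with an interaction of -0.79 ± 0.19 (adjusted p = 0.0073). With the knock-out GPI-positive arrays averaged to 1 sample, the adjusted p was 0.072 for Itgb2 and 0.089 for Cxcr4.

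Ccr7 rose in both comparisons and by more in knock-out marrow, with an interaction of 1.40 ± 0.22 (adjusted p = 0.00018). Itga4 on probe set 1436037_at had 1.24 in knock-out marrow and 0.30 in recipients, with an interaction of 0.94 ± 0.19 (adjusted p = 0.0020). With the mean of the 5 Itga4 probe sets the interaction was 0.12 (adjusted p = 0.54). Selplg had 0.19 in knock-out marrow and 0.74 in recipients, with an interaction of -0.55 ± 0.17 (adjusted p = 0.032), a call that 11 of 23 alternatives lost (adjusted p of 0.051 to 0.20). Leaving out knock-out GPI-negative replicate 2 or any of the 3 knock-out GPI-positive arrays was enough to lose it. So was leaving out array 2 or 4 from recipients of knock-out marrow, or array 2 from recipients of wild-type marrow. The Selplg call was also lost, at the same -0.55, with the knock-out GPI-positive arrays averaged to 1 sample. The Itgal probe set 1425367_at had an interaction of -0.51 (adjusted p = 0.12), which passed at -0.66 without replicate 1 of the recipients of knock-out marrow (adjusted p = 0.013). The interactions of Itgb7, 0.05 (95% interval -0.40 to 0.51), and Itgax, 0.20 (-0.15 to 0.55), did not pass. Batch, graft and irradiation lie between the comparisons and cannot be told apart in this test.

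The pattern of each gene over the 17 arrays, after each batch mean was subtracted, was set beside every other gene as a description, since arrays of a group share whatever separates the groups. Itgb7 was most like Npc2, a lysosomal cholesterol carrier, and Itm2c and Ahnak (Pearson r = 0.973, 0.968 and 0.965). Itgam was most like Ugp2, Megf9 and Ncf1, a subunit of the phagocyte oxidase (r = 0.980, 0.974 and 0.973). Ccr7 was most like Gpr18, Gimap1 and Evl (r = 0.979, 0.978 and 0.975), and Itgax was most like Syt11, Lifr and Il2rb, a chain of the interleukin-2 receptor (r = 0.964, 0.962 and 0.962). For Cxcr4 they were Sel1l and Os9, both of protein quality control in the endoplasmic reticulum, and Cd44 (r = 0.950, 0.941 and 0.938).

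The remaining genes had looser matches. Itgb2 was most like Iqgap1, Hcls1 and Rab11fip1 (r = 0.936, 0.923 and 0.923), and Selplg was most like Ms4a4c, Mpeg1 and Tmsb10 (r = 0.942, 0.923 and 0.911). Itga4 was most like AI504432, Ehd3 and Dgka (r = 0.939, 0.937 and 0.929), and Itgal was most like Atp2b1, Ccdc50 and Gbp3 (r = 0.933, 0.887 and 0.881). Among the members, Itgam went with Cxcr4 (r = 0.88) and Itgb2 (r = 0.80), and Ccr7 went with Itga4 and Itgax (r = 0.87 each). Itgam ran against Ccr7 and Itga4 (r = -0.76 each), and its r with its relative Itgax was -0.59.

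A further 58 genes of adhesion and homing were read on their brightest probe sets. In knock-out marrow 15 were higher and 13 lower in GPI-negative cells, with a median log2 difference of -0.01. In recipients of knock-out against wild-type marrow 13 were higher and 1 lower (median 0.18), and against wild type 16 were higher and 2 lower (median 0.21). Between the GPI-positive groups of batch 2 limma called 0, with 12 at an unadjusted p under 0.05. Over all probe sets kept, 25.4%, 4.1%, 8.17% and 0.617% were called in these comparisons, in the same order. Those shares cover probe sets of any brightness, while the 58 genes were read on their brightest. They also stand beside the counts by role below. The genes named next are the largest rises and falls, at most 3 of each in a comparison, unless said otherwise.

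Among 13 homing receptors beside Ccr7 and Cxcr4, 6 were higher and 3 lower in knock-out GPI-negative cells, and 7 were higher in recipients of knock-out against wild-type marrow. Cxcr3, a receptor of activated T cells, averaged 5.70 in knock-out GPI-negative cells and 2.67 in knock-out GPI-positive cells, a log2 difference of 3.03 ± 0.23 (adjusted p = 3.9e-09). It differed by 1.75 ± 0.22 between recipients of knock-out and of wild-type marrow (adjusted p = 3.3e-05). Ccr9, which steers cells to the gut and is also a dendritic cell marker here, averaged 5.73 in knock-out GPI-negative cells and 2.84 in knock-out GPI-positive cells, with log2 differences of 2.89 ± 0.23 in knock-out marrow and 1.95 ± 0.22 in recipients (adjusted p = 8.3e-09 and 9.4e-06). Ccr1 and the neutrophil receptor Cxcr2, itself a neutrophil marker here, fell by 1.16 and 1.11 (log2) in GPI-negative cells of knock-out marrow (adjusted p = 0.00011 and 0.00054).

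Of 11 other integrin chains 4 were higher and 1 lower in knock-out GPI-negative cells, and between recipients limma called 0 of them, with 2 at an unadjusted p under 0.05. Of 8 counter-receptors 2 were higher and 1 lower in knock-out GPI-negative cells, and 3 were higher and 1 lower between recipients. Vcam1, the counter-receptor of Itga4 integrins and a macrophage marker here, averaged 1.92 in knock-out GPI-negative cells and 3.73 in knock-out GPI-positive cells, a log2 difference of -1.81 ± 0.12 (adjusted p = 4.2e-10). It averaged 1.80 in recipients of knock-out marrow, against 3.74 in recipients of wild-type marrow and 4.02 in wild type, with differences of -1.94 and -2.22 (adjusted p = 7e-10 and 9.7e-12). Fn1, the fibronectin gene, averaged 6.86 in recipients of knock-out marrow and 4.93 in wild type, a log2 difference of 1.93 ± 0.21 (adjusted p = 4.9e-06). Itgae, the other partner of Itgb7, and the Itgal counter-receptor Icam1 were picked after their values were seen for their pairing with members. Itgae averaged 2.76 in knock-out GPI-negative cells and 0.86 in knock-out GPI-positive cells (1.90 ± 0.20, adjusted p = 4.5e-07), and its difference of 0.55 between recipients did not pass (adjusted p = 0.12). Its signal was low, with means below the array median in every GPI-positive group (0.78 in recipients of wild-type marrow and 0.88 in wild type). Icam1 differed by 1.44 ± 0.13 in knock-out marrow (adjusted p = 6.8e-08) and by 0.58 ± 0.12 between recipients (adjusted p = 0.0079).

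Of 10 genes of selectins, Cd44 and the enzymes that build the selectin-binding sugars of Selplg and other ligands, 6 were lower in knock-out GPI-negative cells. Between recipients limma called 0 of these 10, with 3 at an unadjusted p under 0.05. Against wild type, 3 were higher and 1 lower in recipients of knock-out marrow, the lower being the sialyltransferase St3gal6 (-0.51 ± 0.12, adjusted p = 0.011). Of 13 genes that activate integrins from inside the cell, 3 were higher and 2 lower in knock-out GPI-negative cells, and 3 were higher between recipients. Skap1, a T cell adaptor of that group, averaged 4.61 in knock-out GPI-negative cells and 1.75 in knock-out GPI-positive cells (2.86 ± 0.24, adjusted p = 1.1e-08). It averaged 2.71 in recipients of knock-out marrow and 1.13 in recipients of wild-type marrow, where it lay below the array median. The difference between recipients was 1.58 ± 0.22 (adjusted p = 0.00014). Of 3 homing ligands limma called 0 in knock-out marrow and 0 between recipients, with 1 at an unadjusted p under 0.05 in each. The interaction was called above 0 for 7 of the 58 and called below 0 for 13, against 6.74% and 8.24% of all probe sets. These calls were led by Cxcr6 (1.79), Itgae (1.34) and Skap1 (1.29) above and by Ccr1 (-1.69), Cxcr2 (-1.54) and Fn1 (-1.20) below.

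**Figure D5:**
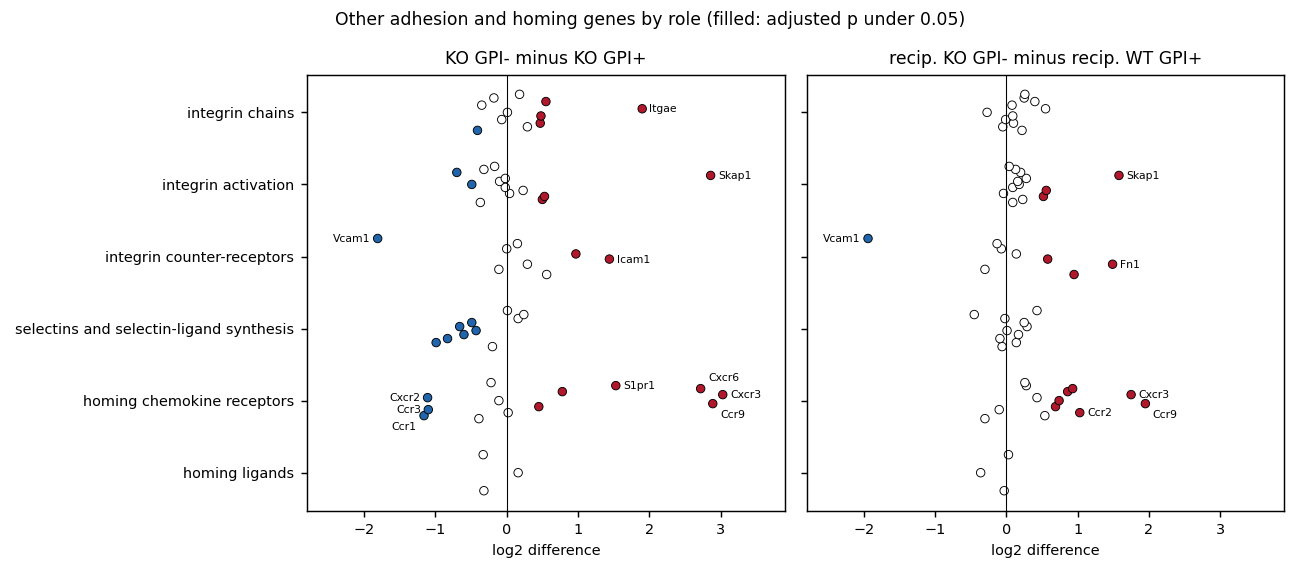
Log2 difference of the 58 other adhesion and homing genes, grouped by role, in KO GPI- minus KO GPI+ cells and in recipients of KO minus recipients of WT marrow. Each point is the brightest probe set of a gene, filled where the adjusted p is under 0.05 (red higher, blue lower), and genes with large differences are labelled: Cxcr3 lies at 3.03 and 1.75, and Vcam1 at -1.81 and -1.94.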

How the data were processed

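The members and gene lists were chosen with earlier results of these data known. The authors' deposited table gives log10-like values from 0 to 3.857 in batch 1 and 3.895 in batch 2. The base was read from the values: hybridisation controls of known concentration gave slopes of 0.87 to 1.08 in batch 1 and 1.10 to 1.21 in batch 2 per unit of log10 concentration. Sorted values were identical within each batch, so the deposited values were quantile-normalized per batch. How background was corrected and probes summarised is left unsaid by the labels, and GCOS 12 is named in the submitters' processing notes.

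Values were divided by log10 of 2. Of 45101 probe sets, 64 controls were left out, 34945 had 1 symbol, 932 several and 9160 none. Probe sets were kept if at least 3 arrays had them at or above the 40th percentile of that array (32393, all 14 members among them). One limma fit (version 3.58.1, R 4.3.3; lmFit, eBayes with trend) used 5 group means and 12 residual degrees of freedom, with Benjamini-Hochberg adjustment over all kept probe sets. Intervals are 95% moderated-t intervals. The fit was tested on simulated data. The number of arrays limits the precision. Named beyond the members, by rule, were the 3 largest rises and falls among called listed genes and the 3 genes most alike. Other normalizations, filters, gene summaries, fits and left-out arrays were tried. Same-numbered arrays of different groups correlated at -0.13 to 0.09 in 13 pairs, so numbers were not taken as pairs.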

Additional observations from a re-analysis of the deposited data

Results flagged for a closer look

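In limma's interaction test, 6 of the 14 probe sets were called as differing between knock-out marrow and the recipients, against 15% of all probe sets. The interaction was 1.40 for Ccr7 (adjusted p = 0.00018), 0.94 for Itga4 1436037_at (0.0020), -1.87 for Itgam (7.5e-05), -0.80 for Itgb2 (0.0051), -0.79 for Cxcr4 (0.0073) and -0.55 for Selplg (0.032). The Itga4, Itgb2, Cxcr4 and Selplg calls were each lost in at least 1 alternative, as given above. Batch, graft and irradiation cannot be told apart in this test. On the second Itgal probe set, 1425367_at, wild-type replicate 4 read 3.41 with its nearest neighbour at 3.24, a gap of 0.83 of the group's range. It was the only such array in 28 tests, where chance would mark about 1 in 20. These took the 14 probe sets in recipients of knock-out marrow and in wild type, the groups of 4 arrays, so they share arrays. Groups of 3 arrays were not tested.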

How the results depend on the processing

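Of the alternatives run on single member probe sets, 1185 gave the same side of the threshold, 29 lost a call and 5 gained one, and no called difference changed sign. With the knock-out GPI-positive arrays averaged to 1 sample, 5 of 14 were called in knock-out marrow against 8, and 3 interactions against 6. All-probe-set counts then were 2764 against 8239, and 1481 against 4854. Leaving out 1 array gave 7 to 8 calls in knock-out marrow, 4 to 6 between recipients, 4 to 5 for recipients of knock-out marrow against wild type, 0 to 0 between the GPI-positive groups of batch 2, and 5 to 7 interactions. Fitting only the compared arrays gave 841 of all probe sets between recipients against 1327, and leaving out array 2 or 3 of recipients of wild-type marrow gave 828 or 865. Between those GPI-positive groups, 200 became 132 without the filter, 85 without trend, 400 with only the compared arrays, 46 with a replicate block, 62 with the averaged arrays and 22 to 139 with 1 array left out. A replicate block gave 8, 4, 4 and 0 member calls in the 4 comparisons and 5 interactions, losing Itgal against wild type (adjusted p = 0.051) and the Selplg interaction (-0.53, adjusted p = 0.071). Apart from the averaging itself, which leaves fewer samples, the cause of these changes was not tested.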
